A study of Mus musculus with 11 samples.

Results

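Messenger RNA was measured for 41 genes of DNA replication and S phase entry in L-GMP cells. These are granulocyte-macrophage progenitors of the mouse that carry the leukaemia fusion gene MLL-AF9. The genes were taken from a given list and found through the RefSeq accessions of the array probes, which gave 47 probes, and 40 of the 41 genes were among the 25079 genes or unnamed features tested. The exception was Ccne2, which encodes a cyclin of S phase entry: its probe was well above background on 0 of the 11 arrays. The cells had the genotype Jmjd2a/b/c f/f; Rosa26::CreERT2 on a C57BL/6 background, that is, floxed alleles of Kdm4a, Kdm4b and Kdm4c (the Jmjd2 histone demethylases) and a 4-hydroxytamoxifen-inducible Cre recombinase at the Rosa26 locus, in every group. The 4 cell lines were derived from leukaemic mice and grew with 20% fetal bovine serum and 10 ng/ml IL-3. RNA was hybridised before the drug (0 h, 4 arrays) and after 48 h (4 arrays) and 96 h (3 arrays) in 500 nM 4-hydroxytamoxifen. No array of drug-treated cells without floxed alleles, or of untreated cells at 48 h or 96 h, was analysed here, so deletion, drug and recombinase, and time in culture cannot be told apart. The 96 h arrays were on a slide of their own, so slide and the 96 h time point cannot be told apart either, while 0 h and 48 h shared a slide.

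Before S phase, the origin recognition complex with Cdc6 and Cdt1 loads the ring-shaped MCM helicase onto DNA. The kinase Cdc7 with Dbf4, and the factors Cdc45, GINS and Mcm10, then turn the loaded helicase into a moving fork, where primase and the DNA polymerases copy the strands. Many of these genes are transcribed at the G1/S boundary under the E2F factors, which cyclin E and its kinase partner help to release from the retinoblastoma protein. In bulk RNA such as this, fewer cells in S phase and less RNA per cell cannot be told apart.

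Levels are given as scaled log2 signal, the log2 of an array's processed signal minus that array's 75th percentile. A difference was called at an adjusted p under 0.05 in limma with Benjamini-Hochberg adjustment over all 25079 features, and its error is limma's SE. The floxed genes fell in every treated array: Kdm4a, Kdm4b and Kdm4c were at 33.1%, 10.2% and 3.24% of their 0 h level at 48 h and at 43.6%, 10.5% and 4.13% at 96 h, with no overlap between groups. Between 50.2% and 75.8% of an array's spots were well above background, and with 3 or 4 arrays a group the number of arrays sets the precision. The 75th percentile used for scaling was 149 to 204 at 0 h, 108 to 147 at 48 h and 229 to 294 at 96 h. These ranges did not overlap, so the scaling value followed the time points. All 12 myeloid progenitor markers were measured, with a summed level (in multiples of an array's 75th percentile) of 1055 to 1315 at 0 h, 1463 to 1547 at 48 h and 1406 to 1468 at 96 h. Such sums are of linear levels, so the brightest genes, here Ctsg (scaled log2 signal 9.62 at 0 h), weigh most. The median log2 difference of the 12 from 0 h was 0.14 at 48 h and 0.02 at 96 h. Over all features it was 0.12 and 0.11. At 48 h Mpo, which encodes myeloperoxidase, and Ms4a3 rose (4.33 and 1.74) while the homeobox genes Hoxa9 and Meis1 fell by 0.62 and 0.64 on the log2 scale. Without the array labelled 0 h replicate 1, Ms4a3 was not called, while Mpo, Hoxa9 and Meis1 were. All 10 mature neutrophil markers were also measured, none of them below background on all arrays, and summed to 79.2 to 637 at 0 h, 171 to 612 at 48 h and 795 to 1502 at 96 h. The part of this difference in the replication genes' values was not tested. Of 8 erythroid markers 5 were tested. They summed to 0.645 to 0.766 at 0 h, 0.747 to 1.11 at 48 h and 0.802 to 0.856 at 96 h. Among them Epor alone was called, higher than at 0 h at 48 h and 96 h (0.66 and 0.87).

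The array labelled 0 h replicate 1 stood apart for these genes. It held the lowest of the 4 untreated values for 35 of the 40 genes (87.5%) and the highest for 0, whereas over all features it held the lowest value for 26.4%. The array labelled 0 h replicate 3 held the highest untreated value for 27 of the 40 genes (67.5%, against 27.8% of all features). For the 40 genes, the calls, medians and non-overlap counts against 0 h are therefore also given without replicate 1. Same-numbered cultures are identified by the number in the deposited file names. It equals the title's replicate number at 0 h and 48 h, but at 96 h replicates 1, 2 and 3 are cultures 1, 3 and 4, so culture 2 has no 96 h array.

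Promoter sequences are shown for the genes that head the list (Mcm2 and Lig1) and for the 4 called genes with the smallest adjusted p that hold one of the letter patterns searched. Each is the 250 bases before the RefSeq start of transcription in GRCm38.p6, 5′ to 3′ on the gene's strand. Capitals mark an E2F pattern (TTTCCCGC, TTTCGCGC, TTTGCCGC or TTTGGCGC), a CCAAT box (CCAAT) or a cell cycle homology region (TTTGAA or TTCGAA) on either strand. No marked patterns overlap within these sequences.
Mcm2: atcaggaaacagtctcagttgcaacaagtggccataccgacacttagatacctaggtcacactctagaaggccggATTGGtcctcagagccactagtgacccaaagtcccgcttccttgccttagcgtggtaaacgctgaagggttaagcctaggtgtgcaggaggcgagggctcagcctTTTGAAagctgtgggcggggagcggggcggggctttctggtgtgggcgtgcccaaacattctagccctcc
Lig1: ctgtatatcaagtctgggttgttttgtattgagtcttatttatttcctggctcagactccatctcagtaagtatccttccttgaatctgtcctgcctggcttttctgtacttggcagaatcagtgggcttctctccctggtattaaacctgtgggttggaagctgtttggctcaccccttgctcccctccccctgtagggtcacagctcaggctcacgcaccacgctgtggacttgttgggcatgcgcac
Fen1: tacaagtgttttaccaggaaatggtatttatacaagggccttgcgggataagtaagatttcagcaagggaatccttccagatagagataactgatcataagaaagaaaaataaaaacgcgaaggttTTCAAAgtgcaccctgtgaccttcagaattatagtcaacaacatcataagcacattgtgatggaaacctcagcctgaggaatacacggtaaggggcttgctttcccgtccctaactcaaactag
Orc1: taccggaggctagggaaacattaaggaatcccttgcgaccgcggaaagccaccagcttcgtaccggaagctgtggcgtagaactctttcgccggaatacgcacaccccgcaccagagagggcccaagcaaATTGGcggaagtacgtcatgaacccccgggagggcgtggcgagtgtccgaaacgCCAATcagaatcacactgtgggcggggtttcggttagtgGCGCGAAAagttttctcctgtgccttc
Chaf1a: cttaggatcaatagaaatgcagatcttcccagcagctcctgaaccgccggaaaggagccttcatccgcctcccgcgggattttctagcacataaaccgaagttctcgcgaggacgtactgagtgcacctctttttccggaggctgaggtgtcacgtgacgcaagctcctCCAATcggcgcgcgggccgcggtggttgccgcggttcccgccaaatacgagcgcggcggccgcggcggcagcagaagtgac
Rpa1: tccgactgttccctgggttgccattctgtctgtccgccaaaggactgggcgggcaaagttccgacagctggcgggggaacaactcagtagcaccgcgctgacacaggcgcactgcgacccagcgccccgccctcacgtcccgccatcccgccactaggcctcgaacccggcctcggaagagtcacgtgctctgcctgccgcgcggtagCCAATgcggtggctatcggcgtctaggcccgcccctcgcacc

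The Mcm2 sequence (chr6:88898781-88899030, minus strand) held a CCAAT box on the other strand and a cell cycle homology pattern on the gene's strand, while the Lig1 sequence (chr7:13276925-13277174, plus strand) held no pattern. The Fen1 sequence (chr19:10204394-10204643, minus strand) held a cell cycle homology pattern on the other strand. The Orc1 sequence (chr4:108579204-108579453, plus strand) held 2 CCAAT boxes, 1 on each strand, and an E2F pattern on the other strand, 20 to 27 bases before the start. The Chaf1a (chr17:56040166-56040415, plus strand) and Rpa1 (chr11:75348384-75348633, minus strand) sequences each held 1 CCAAT box on the gene's strand. Among all 34 of the 41 genes with a promoter in the table, 8 (23.5%) held an E2F pattern, against 520 of 27025 promoters of the same length (1.92%). These were Cdc6, Gins3, Mcm5, Mcm6, Mcm7, Orc1, Pola1 and Rfc3. A CCAAT box stood in 21 of the 34 (61.8%, against 34.5% of all promoters) and a cell cycle homology pattern in 6 (17.6%, against 17.5%). These are letter matches only, and of the 8 genes with an E2F pattern, Orc1 alone was called in any comparison. Only the exact E2F words listed above were searched, so near variants of them, in Chaf1a or any other promoter, were not counted.

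At 48 h, the flap endonuclease gene Fen1, the licensing gene Orc1, the transcription factor gene E2f1, the kinase gene Cdc7 and the cyclin gene Ccne1 rose against 0 h, and limma called 0 of the 40 genes lower (2 had an unadjusted p under 0.05 in that direction). These 5 calls are 12.5% of the 40 genes, below the 18.6% of all features called (10.5% higher and 8.03% lower). The median log2 difference of the 40 genes was 0.25, against 0.12 over all features, and 31 of the 40 lay above 0. Values of the 48 h and 0 h arrays did not overlap for 7 of the 40 genes, all higher at 48 h (17.5%), against 14.1% of all features higher and 9.83% lower. Without 0 h replicate 1 the median was 0.09, below the 0.13 of all features, and 3 genes were called higher and 1, the helicase cofactor gene Cdc45, lower (-0.54, adjusted p = 0.0268), that is 10% of the 40 against 11.8% of all features. The arrays then did not overlap for 7 genes higher and 2 lower, against 17.2% and 11.6% of all features. With arrays scaled to their median, which moved all features to -0.10, the 40 genes lay at 0.03, E2f2 alone was called, lower, and the 5 rises were not called.

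At 96 h, the chromatin assembly gene Chaf1a, the single-strand binding gene Rpa1, the DNA ligase gene Lig1 and Orc1 rose against 0 h, and the transcription factor gene E2f2 fell. Again 12.5% of the 40 genes were called, against 9.56% of all features (6.18% higher and 3.38% lower). The median log2 difference was 0.26, against 0.11 over all features, and 35 of the 40 lay above 0. Values did not overlap for 14 genes higher at 96 h and 1 lower, that is 35% and 2.5% of the 40, against 16.4% and 8.7% of all features. With the cultures as a block, 9 genes were called higher and 1 lower: Mcm3, Mcm5, Pold1, Fen1 and Rrm1 joined the 5 already called. With that block 14% of all features were called. Without 0 h replicate 1 the median was 0.13, against 0.11 over all features, and Chaf1a alone was called (2.5% of the 40, against 5.23% of all features). The arrays then did not overlap for 14 genes higher and 3 lower, against 21.1% and 10.6% of all features. With arrays scaled to their median, all features lay at -0.28 and the 40 genes at -0.12, and E2f2 alone was called.

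**Figure D1:**
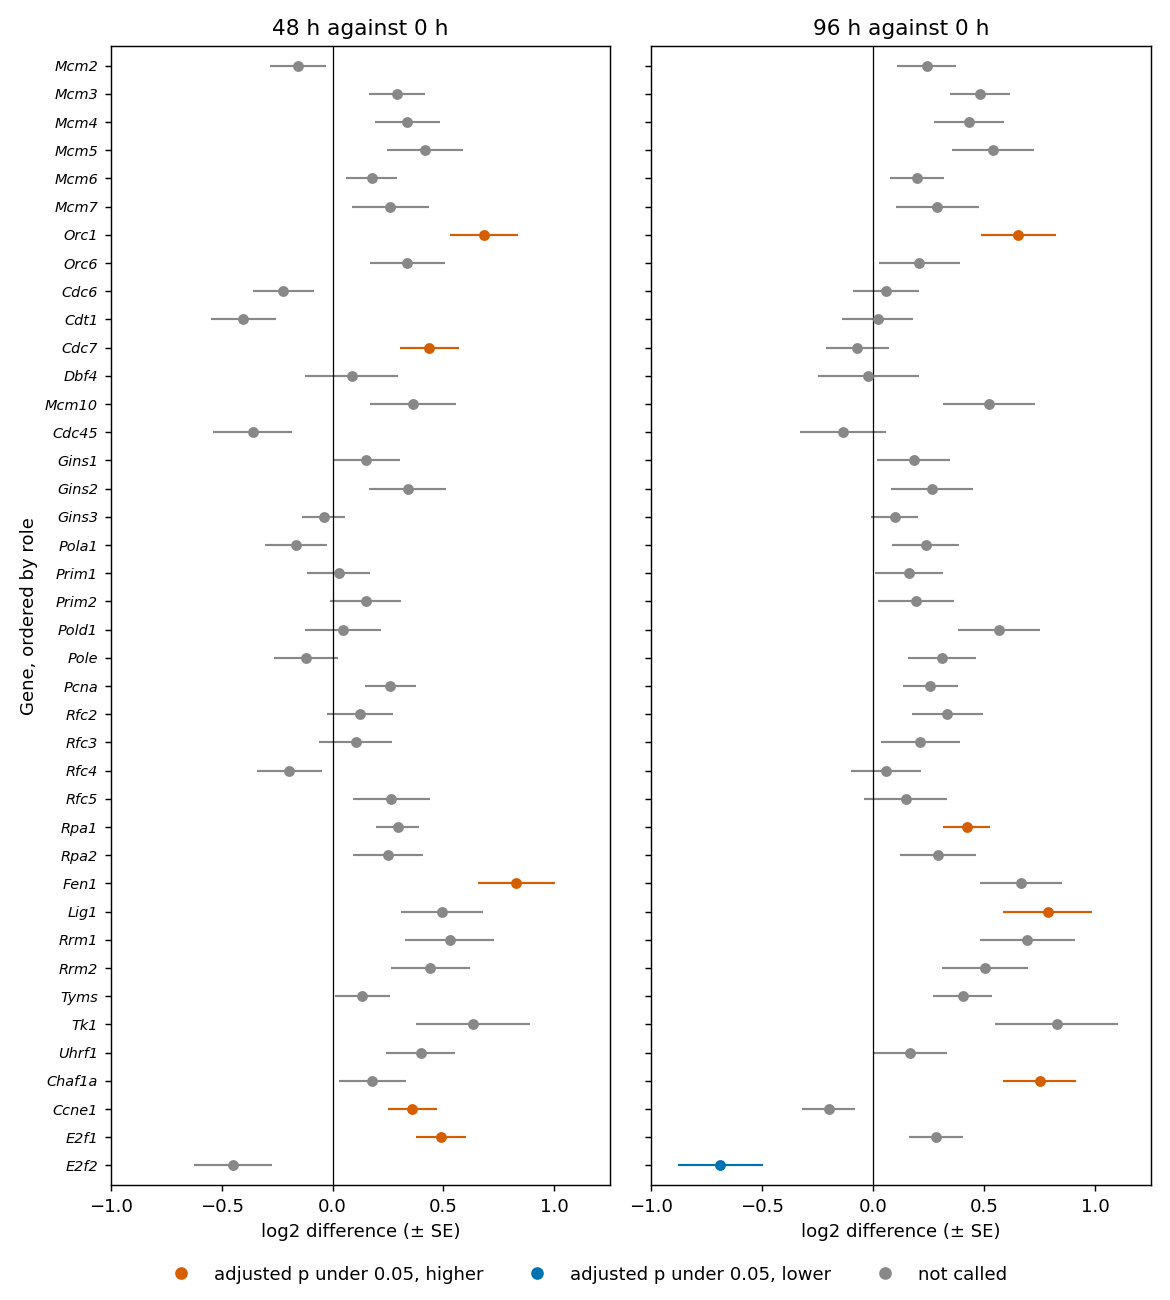
Log2 difference of each of the 40 genes at 48 h against 0 h (left) and at 96 h against 0 h (right), with limma's SE as bars and genes in order of role from the helicase (top) to the regulators of S phase entry (bottom). Coloured points passed an adjusted p of 0.05: 5 higher at 48 h, and 4 higher and 1 lower at 96 h; most grey points also lie right of 0.

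Mcm2, a helicase subunit, was not called in any comparison. Its scaled log2 signal was 3.66, 3.90, 3.73 and 3.57 at 48 h, against 3.70, 3.94, 3.98 and 3.85 at 0 h, a difference of -0.16 (SE 0.12, adjusted p = 0.398). At 96 h it was 3.89, 4.09 and 4.36, a difference of 0.24 from 0 h (SE 0.13, adjusted p = 0.266) and of 0.40 from 48 h (SE 0.13, adjusted p = 0.0858). The groups overlapped in all 3 comparisons, and Mcm2 was the only helicase gene whose 48 h mean lay below its 0 h mean. Limma called 0 of the 6 helicase genes Mcm2 to Mcm7 in any comparison. Their differences ran from -0.16 to 0.42 at 48 h against 0 h and from 0.20 to 0.54 at 96 h against 0 h, where 3 of the 6 had an unadjusted p under 0.05 in each (20.8% and 18.4% of all features did so and were higher). Mcm3 (log2 difference 0.48, SE 0.14, adjusted p = 0.0508) and Mcm5 (0.54, SE 0.18, adjusted p = 0.0890) had 96 h values wholly above the 0 h values, as did Mcm4 (16.4% of all features were so). With the cultures as a block Mcm3 and Mcm5 were called (adjusted p = 0.0317 and 0.0474). Their differences at 96 h were both 0.38 without 0 h replicate 1 (adjusted p = 0.0843 and 0.134).

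Of the 4 licensing genes, which mark origins and load the helicase, Orc1 was higher at both times. Orc1, the largest subunit of the origin recognition complex, measured -1.14, -1.20, -1.19 and -1.73 at 48 h, against -2.05, -1.89, -1.83 and -2.22 at 0 h. At 96 h it measured -1.22, -1.54 and -1.26. All 48 h and 96 h arrays lay above all 0 h arrays, although 48 h replicate 4 was well below the other arrays of its group. The difference from 0 h was 0.68 at 48 h (SE 0.15, adjusted p = 0.0161; a 1.61-fold rise) and 0.65 at 96 h (SE 0.17, adjusted p = 0.0380). Without 0 h replicate 1 the call at 48 h held (0.66, adjusted p = 0.0417) and that at 96 h was lost (0.64, adjusted p = 0.0744). In values corrected by normexp the differences were smaller, 0.27 at 48 h (adjusted p = 0.0423) and 0.23 at 96 h, where the call was lost (adjusted p = 0.129).

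Cdt1 and Cdc6, which help to load the helicase, behaved otherwise. Cdt1 lay at 5.43, 5.47, 5.68 and 5.39 at 48 h, against 5.68, 5.62, 6.26 and 6.02 at 0 h, and at 5.86, 6.06 and 5.83 at 96 h. The 48 h value was below the 0 h value in each of the 4 same-numbered cultures, and the 48 h and 96 h arrays did not overlap. The difference of -0.40 at 48 h was not called (SE 0.15, adjusted p = 0.0846; -0.47 and 0.0746 without 0 h replicate 1), but was called with the cultures as a block (adjusted p = 0.0423). The 2 Cdc6 probes differed: the brighter gave -0.22 at 48 h and 0.06 at 96 h against 0 h, while the other gave 0.00 and 0.49 (adjusted p = 0.0546 at 96 h). Orc6 was not called, with differences of 0.34 and 0.21.

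Cdc7, the kinase that fires licensed origins, rose at 48 h and fell between 48 h and 96 h. It measured -2.20, -1.97, -1.80 and -1.77 at 48 h, against -2.53, -2.28, -2.11 and -2.57 at 0 h, with overlapping ranges, and -2.47, -2.40 and -2.45 at 96 h. The difference was 0.44 at 48 h against 0 h (SE 0.13, adjusted p = 0.0453), -0.07 at 96 h against 0 h (adjusted p = 0.773) and -0.51 at 96 h against 48 h (SE 0.14, adjusted p = 0.0473), where no arrays overlapped. A further Cdc7 probe gave 0.61, 0.03 and -0.58 for the same comparisons. The call at 48 h was lost without 0 h replicate 1 (0.38, adjusted p = 0.103) and the fall after 48 h was lost with the cultures as a block (adjusted p = 0.0522). The Cdc7 probe was dim, with a 0 h mean of -2.37, though well above background on all 11 arrays. In values corrected by normexp the 48 h difference was 0.09 (adjusted p = 0.368). The fall after 48 h was then -0.20 and not called (adjusted p = 0.0936), and it was also -0.20 in the authors' deposited values. With arrays scaled to their median the 48 h difference was 0.21 (adjusted p = 0.590).

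The other origin firing genes (Dbf4, Mcm10, Cdc45, Gins1, Gins2 and Gins3) were not called in any comparison. At 48 h against 0 h their differences ran from -0.36 for Cdc45 to 0.36 for Mcm10, and at 96 h from -0.14 for Cdc45 to 0.52 for Mcm10. Gins3, a GINS subunit, had the steadiest 0 h values of the 40 genes, at 5.96, 5.99, 5.96 and 5.97.

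**Figure D2:**
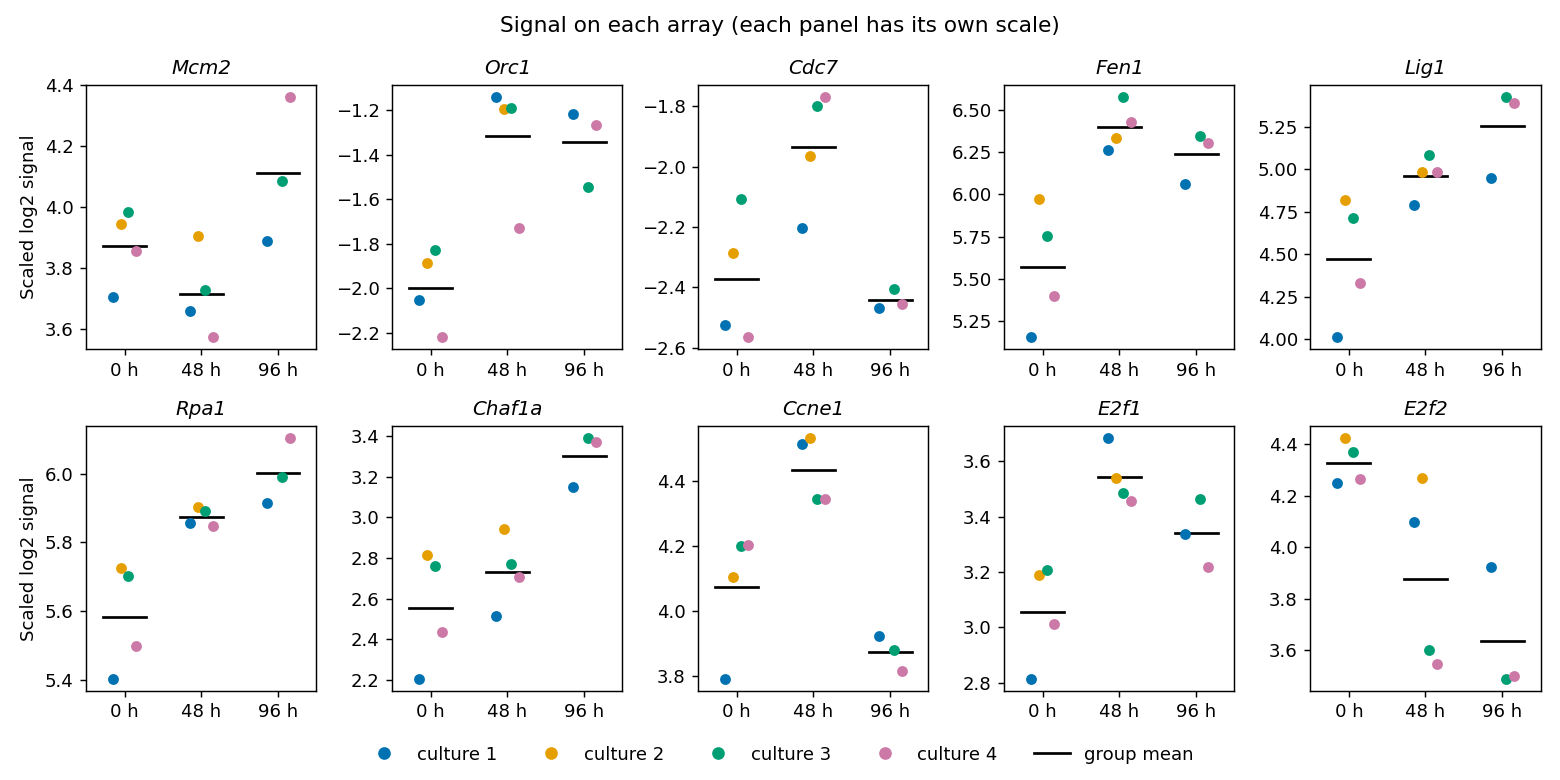
Scaled log2 signal on each of the 11 arrays for Mcm2 and the 9 genes called in at least 1 comparison, at 0, 48 and 96 h, with points coloured by culture (the number in the deposited file names) and bars at group means. For Fen1, Orc1, E2f1 and Ccne1 every 48 h point lies above every 0 h point, and Ccne1 and Cdc7 are lower again at 96 h.

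Limma called 0 of the 5 genes of the replicative polymerases and primase (Pola1, Prim1, Prim2, Pold1 and Pole) in any comparison. Between 48 h and 0 h their differences ran from -0.16 to 0.15, with 0 at an unadjusted p under 0.05. Between 96 h and 48 h all 5 lay above 0, from 0.04 to 0.52, 3 had an unadjusted p under 0.05, and the arrays did not overlap for 3 of them (Pola1, Pold1 and Pole), where 14.6% and 14.2% of all features did the same. Pold1, the catalytic subunit of polymerase delta, measured 4.69, 4.93 and 4.87 at 96 h, against 4.24, 4.28, 4.45 and 4.25 at 48 h (difference 0.52, SE 0.18, adjusted p = 0.0960) and 3.76, 4.41, 4.67 and 4.20 at 0 h (0.57, SE 0.18, adjusted p = 0.0775). The difference from 0 h was called with the cultures as a block (0.59, adjusted p = 0.0444), and was 0.40 without 0 h replicate 1 (adjusted p = 0.110).

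Among the 7 genes of the sliding clamp, its loader and the single-strand binding protein, Rpa1 was called at 96 h. Rpa1, the large subunit of replication protein A, measured 5.92, 5.99 and 6.10 at 96 h, against 5.40, 5.73, 5.70 and 5.50 at 0 h (difference 0.42, SE 0.10, adjusted p = 0.0352). Its 48 h values of 5.86, 5.90, 5.89 and 5.85 also lay above all 0 h values, but that difference of 0.29 was not called (SE 0.10, adjusted p = 0.0600). No groups overlapped, but the highest 48 h array and the lowest 96 h array lay close together (5.905 and 5.915). The difference between 96 h and 48 h was 0.13 and was not called (SE 0.10, adjusted p = 0.465). Without 0 h replicate 1 the 96 h call was lost (0.36, adjusted p = 0.0692). With arrays scaled to their median, which lowered all features at 96 h, the 96 h difference from 0 h was 0.04 (adjusted p = 0.923). The clamp gene Pcna differed from 0 h by 0.26 at both times (0.19 at both without 0 h replicate 1), and the loader genes Rfc2 to Rfc5 by -0.19 to 0.26 at 48 h and 0.06 to 0.33 at 96 h, with 0 calls in either direction. A further Rfc4 probe gave -0.15 at 48 h and, with the sign opposite to that of the brighter probe, -0.21 at 96 h.

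Both genes of lagging-strand maturation were called, at different times. Fen1, which trims the flaps between Okazaki fragments, measured 6.26, 6.33, 6.57 and 6.43 at 48 h, against 5.15, 5.97, 5.75 and 5.40 at 0 h. This was the largest called rise of the 40 genes at 48 h (0.83, SE 0.17, adjusted p = 0.0120; 1.78-fold), and it held without 0 h replicate 1 (0.69, adjusted p = 0.0252). At 96 h Fen1 measured 6.06, 6.34 and 6.30, again above all 0 h arrays, a difference of 0.67 that just missed the threshold (SE 0.19, adjusted p = 0.0501) and passed it with the cultures as a block (0.72, adjusted p = 0.0273).

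Lig1, the ligase that joins Okazaki fragments, measured 4.95, 5.43 and 5.39 at 96 h, against 4.01, 4.82, 4.72 and 4.33 at 0 h, with no overlap. The difference was 0.79 (SE 0.20, adjusted p = 0.0374; 1.73-fold), and 0.63 without 0 h replicate 1 (adjusted p = 0.0636). At 48 h it measured 4.79, 4.99, 5.08 and 4.98, which overlapped the 0 h range. That difference of 0.49 was not called (SE 0.19, adjusted p = 0.0900), but was called with the cultures as a block (adjusted p = 0.0312).

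The 4 genes of nucleotide supply (Rrm1 and Rrm2 of ribonucleotide reductase, the thymidylate synthase gene Tyms and the thymidine kinase gene Tk1) had 96 h values wholly above their 0 h values, and limma called 0 of them in any comparison. Their 96 h differences from 0 h ran from 0.40 for Tyms to 0.83 for Tk1, and all 4 had an unadjusted p under 0.05. Over all features, 16.4% lay wholly above 0 h and 18.4% had such a p and were higher. Tk1 measured 4.27, 4.34 and 4.56 at 96 h, against 2.91, 4.24, 3.89 and 3.22 at 0 h (0.83, SE 0.28, adjusted p = 0.0859). The 0 h values of Tk1 had the largest SD of the 40 genes, 0.61, with replicates 1 and 4 well below the others. The 96 h differences of the 4 genes without 0 h replicate 1 ran from 0.35 for Rrm2 to 0.61 for Tk1, with adjusted p from 0.106 to 0.206. Rrm1 measured 5.36, 5.43 and 5.37 at 96 h, against 4.16, 5.15, 5.04 and 4.43 at 0 h (0.70, SE 0.22, adjusted p = 0.0671), and was called with the cultures as a block (0.78, adjusted p = 0.0384).

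Chaf1a, the large subunit of chromatin assembly factor 1, which places histones on copied DNA, changed late. It measured 3.15, 3.39 and 3.37 at 96 h, against 2.21, 2.81, 2.76 and 2.43 at 0 h (0.75, SE 0.16, adjusted p = 0.0252; 1.68-fold) and 2.51, 2.94, 2.77 and 2.71 at 48 h (0.57, SE 0.16, adjusted p = 0.0512). The 96 h arrays lay above all others, the call against 0 h held without 0 h replicate 1 (0.63, adjusted p = 0.0461), and the difference from 48 h was called with the cultures as a block (0.65, adjusted p = 0.0148). Uhrf1, which recruits maintenance DNA methylation to copied strands, differed from 0 h by 0.40 at 48 h (SE 0.16, adjusted p = 0.101; 0.0290 with the cultures as a block; 0.26 and adjusted p = 0.202 without 0 h replicate 1) and by 0.17 at 96 h, and its further probe gave 0.42 and 0.24.

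The regulators of S phase entry went different ways. E2f1, an activating E2F factor, measured 3.68, 3.54, 3.49 and 3.46 at 48 h, against 2.81, 3.19, 3.21 and 3.01 at 0 h, with no overlap (0.49, SE 0.11, adjusted p = 0.0174; 1.40-fold). This held without 0 h replicate 1 (0.41, adjusted p = 0.0412). At 96 h E2f1 measured 3.34, 3.46 and 3.22, still above all 0 h arrays, but the difference of 0.28 was not called (SE 0.12, adjusted p = 0.156).

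E2f2, a further activating E2F factor, measured 3.92, 3.49 and 3.50 at 96 h, against 4.25, 4.42, 4.37 and 4.27 at 0 h, with no overlap. It fell by 0.69 on the log2 scale, to 62.1% of its 0 h level (SE 0.19, adjusted p = 0.0483), and without 0 h replicate 1 it was not called (-0.71, adjusted p = 0.0759). At 48 h the cultures differed: 4.10 and 4.27 in cultures 1 and 2 and 3.60 and 3.55 in cultures 3 and 4, with an overall difference of -0.45 (SE 0.18, adjusted p = 0.101).

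Ccne1, which encodes cyclin E1, measured 4.51, 4.53, 4.34 and 4.34 at 48 h, against 3.79, 4.10, 4.20 and 4.20 at 0 h, with no overlap (0.36, SE 0.11, adjusted p = 0.0473). It was not called without 0 h replicate 1 (0.26, adjusted p = 0.0911) or with the cultures as a block (adjusted p = 0.0721). At 96 h Ccne1 measured 3.92, 3.88 and 3.82, below all 48 h arrays, and it fell by 0.56 between 48 h and 96 h (SE 0.12, adjusted p = 0.0178, to 67.9% of the 48 h level). Its difference from 0 h at 96 h was not called (-0.20, SE 0.12, adjusted p = 0.292), and a further Ccne1 probe gave 0.27, -0.17 and -0.45 for the changes at 48 h, at 96 h and between both times.

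Between 96 h and 48 h, Ccne1 and Cdc7 were thus the 2 genes called, both lower (5% of the 40, against 11.1% of all features called, 5.17% higher and 5.95% lower). Limma called 0 higher, with 6 at an unadjusted p under 0.05 in that direction. The median difference was 0.12, against 0.03 over all features, and the arrays did not overlap for 10 genes higher and 2 lower (25% and 5%, against 14.2% and 13.6% of all features). With the cultures as a block Chaf1a was called higher and Ccne1 lower.

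**Figure D3:**
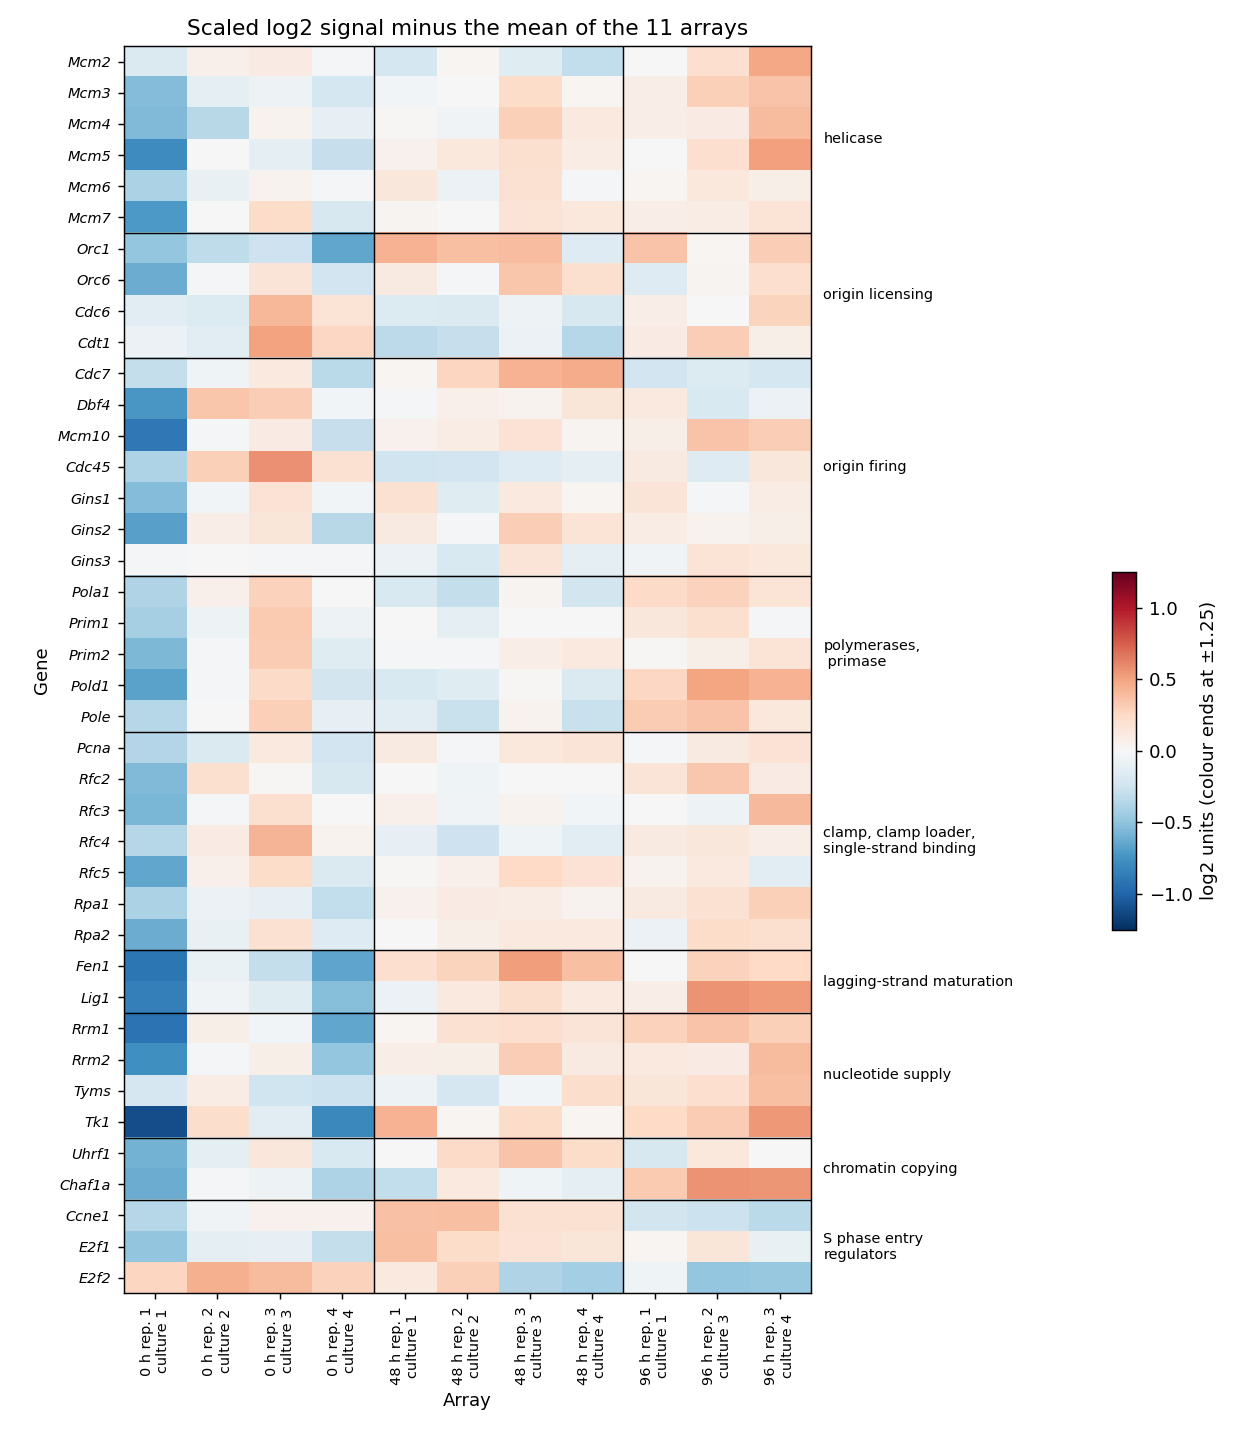
Scaled log2 signal of the 40 genes (down the page, by role) on the 11 arrays (across, by time and culture), minus each gene's mean over the arrays; blue is below the mean and red above it. The column of 0 h replicate 1 is blue for nearly all genes, and the 48 h columns differ less among themselves than the 4 untreated columns do.

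Seen culture by culture, the difference between 48 h and 0 h was uneven. Its median over the 40 genes was 0.56 in culture 1, with 35 genes above 0, and 0.27 in culture 4, with 30 above 0. In cultures 2 and 3 it was 0.00 and 0.05, with 21 and 23 genes above 0. At 96 h against 0 h the medians were 0.60, 0.03 and 0.37 in cultures 1, 3 and 4. Between 96 h and 48 h they were 0.03, 0.00 and 0.19 in cultures 1, 3 and 4. The cultures with the lowest untreated levels were those with the largest differences from 0 h, and both statements use the same 0 h arrays.

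Even so, 18 of the 40 genes (45%) were higher at 48 h than at 0 h in all 4 cultures, against 27.2% of all features, and 4 (Cdc6, Cdt1, E2f2 and Mcm2) were lower in all 4, against 18.1% of all features. At 96 h, 21 were higher than at 0 h in all 3 cultures, against 34.5% of all features, and E2f2 alone was lower in all 3, against 21% of all features.

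**Figure D4:**
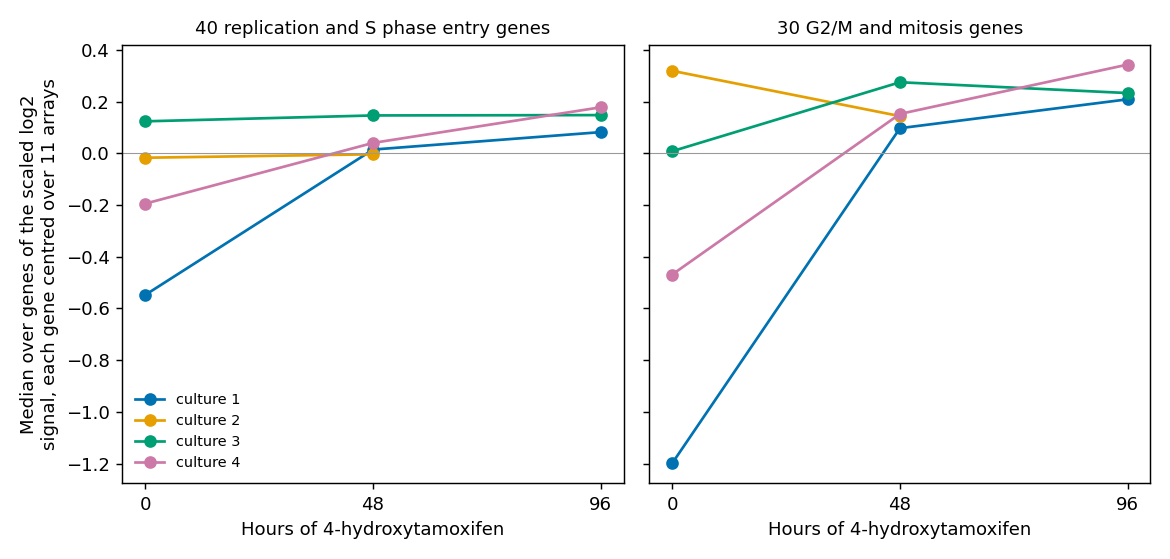
Median over genes of the scaled log2 signal, each gene centred over the 11 arrays, at 0, 48 and 96 h of 4-hydroxytamoxifen for each culture, for the 40 replication and S phase entry genes (left) and 30 G2/M and mitosis genes (right). At 0 h the cultures run from -0.55 to 0.12 on the left and from -1.20 to 0.32 on the right, and at 48 h from -0.00 to 0.15 and from 0.10 to 0.27.

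The spread between cultures was smaller at 48 h than at 0 h for most of the 40 genes, and at 96 h this depended on how arrays were scaled. The median SD of the 40 genes was 0.11 over the 4 arrays at 48 h and 0.13 over the 3 arrays at 96 h, against 0.31 over the 4 arrays at 0 h. The SD was smaller at 48 h than at 0 h for 35 of the 40 genes (87.5%), against 54.7% of all features. It was smaller at 96 h than at 0 h for 37 of the 40 (92.5%), against 57.0% of all features. With arrays scaled to their median, the count was 36 at 48 h (56.1% of all features) but 19 at 96 h (30.5% of all features). The exceptions at 48 h were E2f2, Gins3, Mcm2, Orc1 and Tyms. Among examples, the loader gene Rfc2 had an SD of 0.03 at 48 h and 0.32 at 0 h, and Rrm1 an SD of 0.08 at 48 h and 0.48 at 0 h. Without 0 h replicate 1 the median SD at 0 h was 0.20, and the SD was smaller at 48 h for 32 of the 40 genes, against 49.3% of all features, and at 96 h also for 32, against 52.2%. The 33 other replication genes described below did likewise in the reported fit. Their SD was smaller than at 0 h for 29 (87.9%) at 48 h and for 27 (81.8%) at 96 h. Their median SD was 0.29 at 0 h, 0.14 at 48 h and 0.13 at 96 h. These are descriptions of 3 or 4 arrays a group, with no test. Genes of 1 pathway on the same arrays are not independent.

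**Figure D5:**
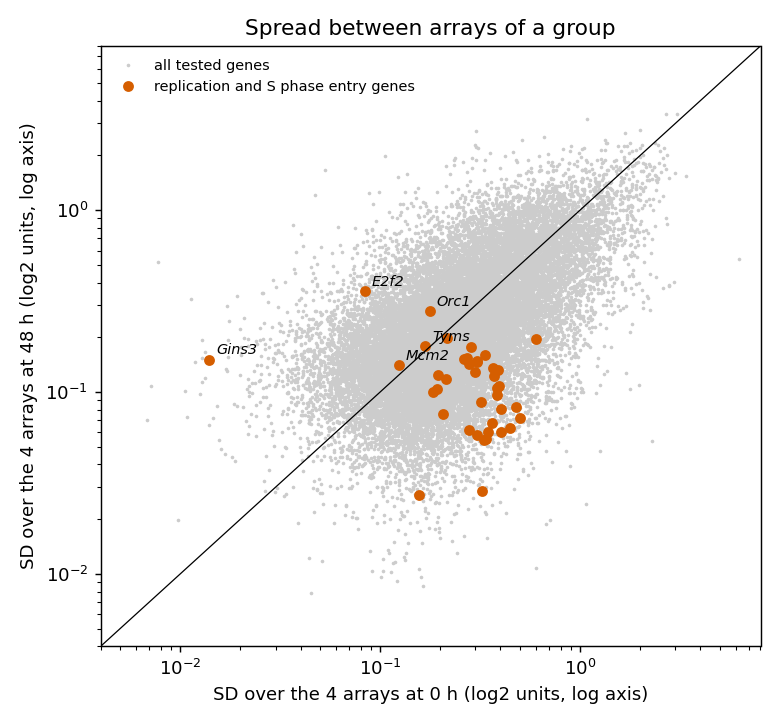
SD over the 4 arrays at 48 h against SD over the 4 arrays at 0 h, in log2 units on log axes, for all features tested (grey) and the 40 genes (orange), with the line of equal SD. For 35 of the 40 genes the point lies below the line, and the 5 above it are named.

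G2/M and mitosis genes, whose products act after replication, also had uneven 0 h arrays, in another order. Their centred median was -1.20, 0.32, 0.01 and -0.47 in 0 h replicates 1 to 4, against 0.10 to 0.27 at 48 h and 0.21 to 0.34 at 96 h. All 30 had a smaller SD at 48 h than at 0 h, with a median SD of 0.11 at 48 h and 0.69 at 0 h. At 48 h 4 of the 30 rose against 0 h (13.3%, against 18.6% of all features called), namely Pttg1, Cdk1, Aurkb and Mki67, with differences of 0.44, 0.86, 1.22 and 1.21. Limma called 0 of the 30 at 48 h without 0 h replicate 1, where 7 were higher and 1 lower at an unadjusted p under 0.05. At 96 h Mki67 alone rose (1.68, SE 0.39, adjusted p = 0.0288), 3.33% of the list against 9.56% of all features. Without 0 h replicate 1, Mki67 was called higher and Cdc20 lower at 96 h, 6.67% of the list against 5.23% of all features. The list's median difference was 0.44 at 48 h and 0.60 at 96 h, against 0.12 and 0.11 over all features, and 0.20 and 0.35 without 0 h replicate 1. By culture it was 1.26, -0.15, 0.26 and 0.58 in cultures 1 to 4 at 48 h, and 1.31, 0.24 and 0.78 in cultures 1, 3 and 4 at 96 h.

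For the other 33 replication genes on a list drawn up alongside, the median difference from 0 h was -0.06 at 48 h and 0.17 at 96 h, with 15 and 23 of the 33 above 0. The median was 0.16 between 96 h and 48 h, with 27 of the 33 above 0. The medians relative to 0 h became -0.17 and 0.05 without 0 h replicate 1. The centred median of these 33 genes was -0.38, 0.03, 0.23 and -0.06 in 0 h replicates 1 to 4. The shares called were 15.2% at 48 h and 9.09% at 96 h relative to 0 h, and 12.1% between 96 h and 48 h, where 18.6%, 9.56% and 11.1% of all features were called. At 48 h the polymerase epsilon subunit gene Pole3 rose (0.71, adjusted p = 0.0232), and 4 fell: the origin recognition genes Orc5 (-0.88, adjusted p = 0.00467), Orc3 (-0.45) and Orc2 (-0.65) and the helicase gene Recql4 (-0.78). Orc5 and Orc2 were also lower at 96 h than at 0 h (-0.76 and -0.86), when Orc1 was higher, and the large clamp loader gene Rfc1 was higher (0.55). Without 0 h replicate 1 the same genes of this list were called at 48 h, and Orc2 and Orc5 but not Rfc1 at 96 h. Between 96 h and 48 h, Timeless, Rfc1 and Orc3 rose (0.88, 0.59 and 0.41) and Orc4 fell by 0.47 on the log2 scale.

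Of 15 other nucleotide and chromatin genes of S phase, the dCTP pyrophosphatase gene Dctpp1 rose at 48 h (0.56), while the alternative ribonucleotide reductase subunit gene Rrm2b (-1.50) and the histone chaperone gene Asf1a (-0.62) fell. At 96 h the maintenance DNA methyltransferase gene Dnmt1 was higher than at 0 h (0.77, adjusted p = 0.0447) and Rrm2b lower (-0.98). Of 29 other regulators of G1 and S phase entry, Skp2, which marks the inhibitor p27 for degradation, rose at 48 h (0.53), and Rb1, E2f3, Rbl2 and Tfdp2 fell by 0.72, 0.73, 0.48 and 0.57 on the log2 scale. At 96 h against 0 h the repressive factor gene E2f7 rose (0.62) and E2f4 fell by 0.53. Between 96 h and 48 h the inhibitor gene Cdkn1a fell by 0.69, E2f4 fell by 0.60, and E2f7 and Rbl2 rose by 0.60 and 0.57. The shares called in these lists were 20% and 17.2% at 48 h (18.6% of all features), 13.3% and 6.9% at 96 h (9.56% of all features), and 6.67% and 13.8% between 96 h and 48 h (11.1% of all features). Limma called 3 of the 15 and 2 of the 29 (E2f3 and Rb1) at 48 h, and 0 of either list at 96 h, without 0 h replicate 1. At an unadjusted p under 0.05, 2 of the 15 were then higher and 1 lower at 96 h, and 2 of the 29 higher and 4 lower.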

How the data were processed

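RNA was measured on 11 1-colour Agilent arrays (0 h, 4; 48 h, 4; 96 h, 3). Per the file headers, Feature Extraction 11.0.1.1 wrote each deposited processed-signal intensity, background-subtracted and not normalized between arrays, on a design built on mm9. The authors' deposited log2 table, an alternative here, correlated with normexp (offset 50) and quantile values at 0.99998 or more per column (column medians 6.17 to 6.19). Its scale is therefore log2 intensity, not centred by gene. Deposited flags of 0 or 1 score spots as above background, outlying or saturated.

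Control and outlier spots (125 to 194 per array) were left out, no non-control spot was saturated, and spots of a probe were averaged. A probe was kept if well above background on at least 3 arrays (34269 of 55681). Accessions were matched to RefSeq GRCm38.p6 (27656 probes with 1 symbol, 0 with several, 28025 with none), and the probe with the highest mean stood for a gene. limma 3.58.1 (lmFit, eBayes, 2-sided) in R 4.3.3 was fitted to all 3 groups with 8 residual degrees of freedom, and tested on simulated data first. Single probes were adjusted over all kept probes. Whether replicates are separate lines is only stated for the series, so p-values measure the spread between these arrays. Deviations from group means of same-numbered cultures correlated at 0.115 to 0.356 in every pair by file-name number. Differently numbered pairs gave -0.293 to 0.167. For 48 h against 0 h the 2 kinds of pair overlapped (lowest same-numbered 0.137, highest other 0.167). The block by culture is given where it changes a call. Alternatives changed scaling, background correction, filter, probe choice, groups fitted, block, slide row and arrays. The genes, lists and motifs were chosen with earlier results of these data known. All listed genes could be named, with per-array values for Mcm2, Lig1, called genes and a few whose overlap is described. From other lists, called genes were named, at most the 4 with the smallest adjusted p. At 0, 48 and 96 h, the monocyte and macrophage markers tested summed to 21.5 to 40.9, 28.2 to 33.5 and 21.2 to 28.8. Lymphoid markers summed to 10.6 to 12.0, 11.8 to 16.0 and 9.28 to 13.1 at these times. Stromal markers summed to 19.1 to 24.2, 25.7 to 34.4 and 14.0 to 18.3, with no overlap between groups. Against 0 h, the genes of these lists that were called were Fcgr1 (-3.71) and Kdr (0.56) at 48 h and Cd3e (-0.53) at 96 h. Figures used Python 3.11.15 and matplotlib.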

Additional observations from a re-analysis of the deposited data

Results flagged for a closer look

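Orc1 on the array labelled 48 h replicate 4 measured -1.73, and the nearest other 48 h array -1.20. The gap was 0.905 of the group's range, above Dixon's critical value for 4 arrays. It was the 1 outlying array among 24 groups of 4 arrays examined, and chance alone flags about 1 in 20. The value still lay above all 4 arrays at 0 h.

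The change from 0 h differed between the times for 2 genes. For Cdc7 the change at 96 h minus the change at 48 h was -0.51 (adjusted p = 0.0473), and for Ccne1 it was -0.56 (adjusted p = 0.0178), which is the difference between 96 h and 48 h tested directly in limma. All 3 arrays at 96 h lay below all 4 at 48 h for both genes, and the 96 h arrays were on another slide.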

How the results depend on the processing

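Of the 12 calls of single genes, Fen1 at 48 h was lost in 1 of 23 alternatives, Orc1 and E2f1 at 48 h in 2 each, Ccne1 between 96 h and 48 h in 4 and Chaf1a at 96 h in 6. Lig1, Rpa1, Orc1 and E2f2 at 96 h were lost in 10, 12, 14 and 15, and Cdc7 and Ccne1 at 48 h and Cdc7 between 96 h and 48 h in 17, 18 and 18. No called gene changed direction in any of them.

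The 5 calls at 48 h against 0 h became 1 with median scaling, and 3 with slide row as a term, in a fit of the compared groups alone or with all dim probes kept. The 5 at 96 h against 0 h became 1 with median scaling, 8 after normexp correction, 11 from the deposited table, 8 with only probes well above background on all arrays, 10 with the replicate block by culture number and 2 with the replicate block by title number. They became 0 with all dim probes kept or in a fit of the compared groups alone, which rests on fewer arrays. The share of all features called at 96 h was 10.2% with median scaling, 10.4% after normexp, 10.6% from the deposited table, 14.7% with only probes well above background on all arrays, 14% and 5.92% with the blocks by culture and by title number, 2.46% with all dim probes kept and 1.73% with the compared groups alone, against 9.56% in the reported fit. At 48 h it was 7.17% to 21.4% over the settings named here, and between 96 h and 48 h 3.67% to 13.5%. The 2 at 96 h against 48 h became 0 with median scaling, 5 after normexp correction, 7 from the deposited table, and 1 with all dim probes kept, with the replicate block by title number or with slide row as a term. With the block by culture number they numbered 7 at 48 h and 2 between 96 h and 48 h. Leaving out 1 array at a time gave 3 to 8, 0 to 9 and 0 to 3 calls. The share of all features called moved too. Without 0 h replicate 1 it was 11.8% at 48 h and 5.23% at 96 h, against 18.6% and 9.56% in the reported fit. For the other arrays that share is not given here, so these counts cannot be set against all features. The 96 h count was 0 without 0 h replicate 4 or 96 h replicates 2 or 3, 1 without 0 h replicate 1 and 9 without 0 h replicate 2. The 48 h count was 8 without 0 h replicate 2 and 3 without 0 h replicate 4, 48 h replicates 1, 3 or 4, or any 96 h array. Between 96 h and 48 h the count was 3 without 0 h replicate 1 and 0 without 96 h replicates 1 or 3, and it was 1 when 96 h replicate 2, 0 h replicate 4, or any 48 h array but that of replicate 1 was left out.

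Leaving out 1 array moved the genes' median difference between 0.09 and 0.34 at 48 h, 0.13 and 0.34 at 96 h, and 0.02 and 0.16 between them. Median scaling gave -0.12 at 96 h and -0.046 between 96 h and 48 h, with all features at -0.28 and -0.13. The count with a smaller SD stayed at 32 to 37 without any 1 array at either time. With median scaling it was 36 at 48 h and 19 at 96 h (30.5% of all features), an alternative chosen after seeing the data like the others on spread. The cause of these differences was not tested.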
